A study of Mus musculus with 6 samples.

Results

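The genes described are 10 mouse genes of Wnt signalling, out of 18305 genes in the count tables: 7 encode secreted antagonists (Wif1, Dkk2, Dkk3, Sfrp1, Sfrp2, Frzb and Notum), and Lgr5, Axin2 and Nkd1 are best known as genes that the pathway itself induces. They were found by NCBI gene number in all 6 libraries, and were picked with their levels in these libraries already known. Their levels and fold changes are therefore descriptions, with no test. RNA was sequenced from cultured cells of KM mice, with 2 libraries in each of 3 groups. MEF are fibroblasts from embryos of 12.5 or 13.5 days post coitum at passage 3 to 5. CiLC are such fibroblasts, also at passage 3 to 5, induced with small molecules that the labels do not name, starting 24 h after seeding. LC are Leydig cells prepared from testicular tissue at passage 0 to 1, so that they differ from the other groups in tissue and time in culture together. The stated purpose of the series was to set CiLC beside LC in their expression profile.

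Wnt proteins are secreted, lipid-modified signals that bind Frizzled receptors and the co-receptors Lrp5 and Lrp6. In the canonical branch this stops the destruction complex, built on Axin and Apc, from marking β-catenin (Ctnnb1) for breakdown, and β-catenin then acts with TCF/LEF factors at target genes. R-spondins, binding Lgr4, Lgr5 or Lgr6, strengthen the signal by keeping Frizzled receptors at the surface. Secreted antagonists act outside the cell, and several intracellular inhibitors are themselves induced by the signal. In the developing gonad the pathway, with Rspo1 and Wnt4, is known for its part in the ovarian fate.

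Libraries held 18.4 to 18.9 M estimated reads. The cultures were read against defining markers of their labels. Of 7 Leydig markers, all had reads in LC and in MEF, and all but Lhcgr in CiLC. Having reads thus did not set the groups apart. In the LC libraries Cyp17a1, needed for androgen synthesis, was at 0 and 0.0589 CPM (counts-per-million) and the luteinizing hormone receptor Lhcgr at 0.174 and 0.118 CPM, both near 0. The summed Leydig markers were 1081 to 1109 CPM in LC, 144 to 148 in CiLC and 7.55 to 9.40 in MEF. Summed fibroblast markers (6 genes, mostly collagens) were similar in all groups, although single members were not. The sums were 27908 to 28781 CPM in MEF, 29745 to 30003 in CiLC and 27139 to 27846 in LC. In CiLC, Col1a1 was 1.82-fold and Col1a2 1.14-fold lower than in MEF, and Col3a1 2.49-fold, Pdgfra 3.12-fold, Dcn 2.82-fold and Thy1 2.07-fold higher. The surface marker Thy1 was 68.9-fold lower in LC than in MEF. Macrophage genes were abundant in all cultures, with all 7 markers read in each group and sums of 1113 to 1127 CPM in LC, 2694 to 2742 in CiLC and 3904 to 3942 in MEF. In such bulk RNA, fewer cells of a type and less RNA per cell cannot be told apart.

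The groups took several different orders among the 10 genes. Dkk2, Dkk3 and Lgr5 were highest in MEF and lowest in LC. Frzb and Axin2 had the opposite order, with CiLC again in between. Sfrp1, Notum and Nkd1 were highest in CiLC and lowest in LC, Sfrp2 was highest in CiLC and lowest in MEF, and Wif1 was abundant in CiLC alone. In 9 of the 10 genes no library of a group overlapped those of another group. Wif1, whose MEF and LC libraries overlapped, was the exception. The same held for 57.4% of all 14581 genes tested, and since the 10 genes were picked for these levels nothing is read from the difference.

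**Figure D1:**
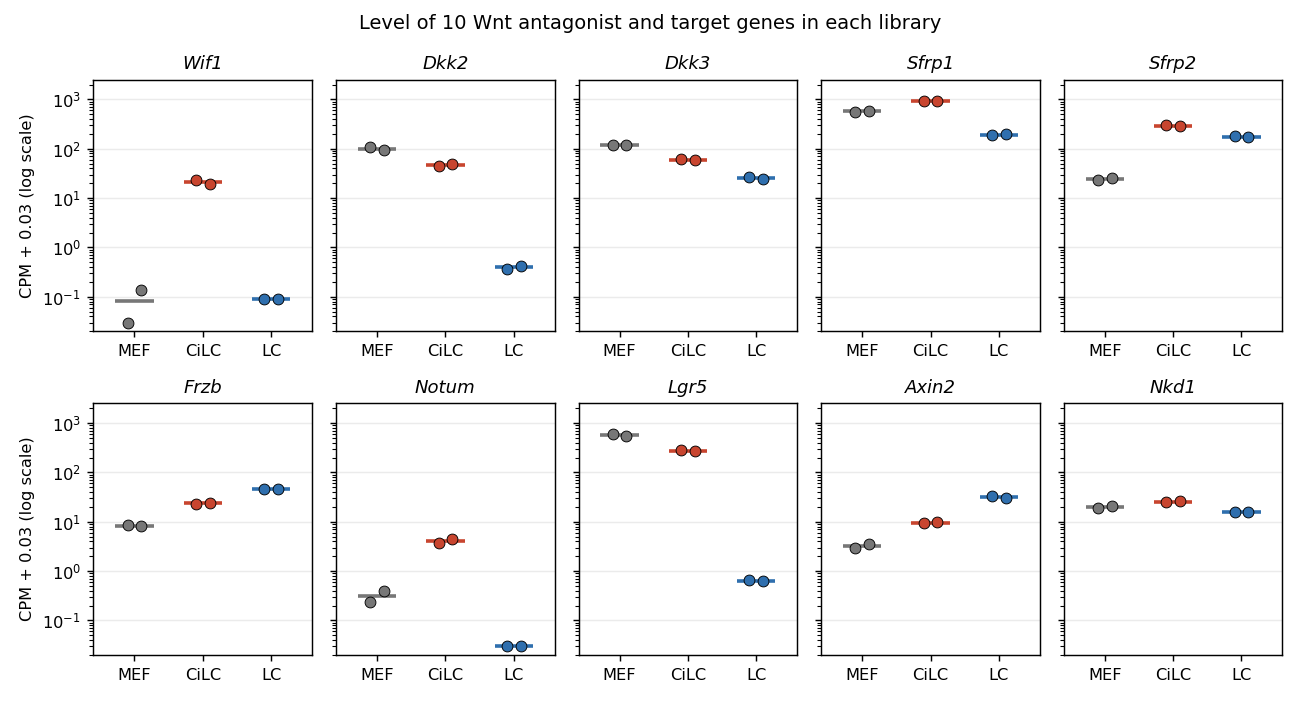
Level of each of the 10 genes in every library, as CPM with 0.03 added so that 0 can be drawn, on a log scale. Points are single libraries and lines are group means (n = 2). The 2 libraries of a group lie close together beside the gaps between groups, and are farthest apart for Wif1 in MEF, at 0 and 0.104 CPM.

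Promoter sequence was in the RefSeq table (build GRCm38.p6) for 6 of the 10 genes. Shown are the 250 bases before the start site of Wif1, which differed most between CiLC and MEF, of Dkk2, whose order of groups ran from MEF down to LC, and of Frzb and Axin2, which shared the reverse order. They are written 5′ to 3′ along the strand of the gene, with matches to CTTTG, the core of TCF/LEF sites, and to TATAAA, on either strand, in capitals.
Wif1 chr10:121033754-121034003 (+ strand): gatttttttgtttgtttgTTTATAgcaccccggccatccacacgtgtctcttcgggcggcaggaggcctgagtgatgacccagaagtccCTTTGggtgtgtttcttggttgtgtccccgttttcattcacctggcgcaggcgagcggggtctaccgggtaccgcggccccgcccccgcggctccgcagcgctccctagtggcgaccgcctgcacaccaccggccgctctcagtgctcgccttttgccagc
Dkk2 chr3:132085042-132085291 (+ strand): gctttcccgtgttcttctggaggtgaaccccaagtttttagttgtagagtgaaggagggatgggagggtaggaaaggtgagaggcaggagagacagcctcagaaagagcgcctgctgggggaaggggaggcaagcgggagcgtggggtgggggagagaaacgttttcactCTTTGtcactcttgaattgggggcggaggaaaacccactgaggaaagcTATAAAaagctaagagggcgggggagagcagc
Frzb chr2:80447397-80447646 (- strand): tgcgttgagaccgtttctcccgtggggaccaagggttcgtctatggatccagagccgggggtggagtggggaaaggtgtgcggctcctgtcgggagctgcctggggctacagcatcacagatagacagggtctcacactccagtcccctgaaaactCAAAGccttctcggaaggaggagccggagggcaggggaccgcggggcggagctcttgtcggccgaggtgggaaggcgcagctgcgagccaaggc
Axin2 chr11:108920099-108920348 (+ strand): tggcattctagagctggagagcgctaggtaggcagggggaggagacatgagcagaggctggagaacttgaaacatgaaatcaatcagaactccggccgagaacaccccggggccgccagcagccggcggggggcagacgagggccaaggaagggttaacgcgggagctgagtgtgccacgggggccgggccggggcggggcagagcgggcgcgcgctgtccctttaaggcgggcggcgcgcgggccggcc
CTTTG or its reverse complement CAAAG was found in 3 of the 6 windows (Wif1, Dkk2 and Frzb) and in 48.6% of 32851 windows of this length over all genes. The longer form CTTTGAT, which contains that core, was in none of the 6 and in 3.21% of all windows. AAGGTCA, a motif of Nr5a1 and related nuclear receptors, was also in none of the 6, against 4.08% of all. TATAAA was in 2 of the 6, starting 32 bases before the start site in Dkk2 and, on the opposite strand, 232 bases before it in Wif1, against 12.4% of all. The windows held 21 CG pairs in Wif1, 24 in Axin2, 16 in Frzb and 7 in Dkk2, where the median over all windows was 6. Those of Sfrp2 and Nkd1, not shown, held 16 and 6. A match or its absence describes these letters only. Dkk2 and Frzb held the core and Axin2 did not hold it in this window. Whether such matches bear on the order of groups was not tested.

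Among the antagonists that bind Wnt ligands, Wif1 was the most restricted. Wif1 (NCBI gene 24117) encodes a secreted protein that binds Wnt ligands and keeps them from their receptors. It stood at 0 and 0.104 CPM in MEF, 23.3 and 19.4 CPM in CiLC, and 0.0580 and 0.0589 CPM in LC. In reads this is 2 in MEF, 841 in CiLC and 2 in LC over the libraries of a group. The level in CiLC was thus 366 times that in LC, with an exact 95% counting interval from 101 to 3024. No fold is given between LC and MEF, where both groups were under the floor of 3 reads.

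The secreted Frizzled-related proteins carry a domain like that of the Frizzled receptors and bind Wnt ligands with it. Sfrp1 (20377) was read at 566 and 578 CPM in MEF, 946 and 938 CPM in CiLC, and 186 and 196 CPM in LC. It was 1.65-fold higher in CiLC than in MEF (log2 fold change 0.72 ± 0.0447 SE) and 4.93-fold higher than in LC (2.30 ± 0.0469 SE). Its estimated counts were not whole numbers in any library, so that its level depends on how the counting divided reads, which is not given.

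Sfrp2 (20319), its close relative, had another order. It stood at 22.9 and 26.0 CPM in MEF, 300 and 288 CPM in CiLC, and 181 and 169 CPM in LC. All CiLC libraries were above all LC libraries, and these above MEF. The level was 12.0-fold higher in CiLC than in MEF (log2 fold change 3.59 ± 0.0674 SE) and 7.18-fold higher in LC than in MEF (2.84 ± 0.0687 SE). Between CiLC and LC the difference was 1.68-fold.

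Frzb (20378), also called Sfrp3 and first known from cartilage, was read at 8.44 and 8.02 CPM in MEF, 23.4 and 23.6 CPM in CiLC, and 45.6 and 45.1 CPM in LC. It was 2.85-fold higher in CiLC than in MEF (log2 fold change 1.51 ± 0.0928 SE) and 5.51-fold higher in LC than in MEF (2.46 ± 0.0888 SE). CiLC stood 61.4% of the way from MEF to LC on the log2 scale. Of 8 cartilage markers, Col2a1, Matn1 and Col9a1 were at 0 in LC, although the summed list was highest there. It was 84.0 to 86.8 CPM in LC, against 23.4 to 26.4 in MEF and 12.0 to 12.7 in CiLC. Nearly all of the LC sum was Sox9, at 46.3 ± 1.69 CPM, and Acan, at 38.9 ± 0.374. The other cartilage markers were lowest in LC by their means.

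Of the Dickkopf proteins, Dkk2 acts on the co-receptor side. Dkk2 (56811), which binds Lrp5 and Lrp6, stood at 106 and 92.5 CPM in MEF, 45.3 and 48.0 CPM in CiLC, and 0.341 and 0.389 CPM in LC. It was 2.12-fold lower in CiLC than in MEF (log2 fold change -1.09 ± 0.0622 SE) and 256-fold lower in LC than in MEF (-8.00 ± 0.426 SE). On the log2 scale CiLC stood 13.6% of the way from MEF to LC, a share that rests on the low LC level. The LC libraries held 5.88 and 6.61 estimated reads. Rounding counts down gave a log2 fold change of -8.24 between LC and MEF. On the CPM scale the means were 99.1 in MEF, 46.7 in CiLC and 0.365 in LC. Dkk3 (50781), a divergent member of the family, was read at 120 and 121 CPM in MEF, 60.6 and 58.6 CPM in CiLC, and 26.2 and 24.7 CPM in LC. It was 2.02-fold lower in CiLC and 4.73-fold lower in LC than in MEF, so that CiLC stood 45.3% of the way.

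Notum (77583) encodes a secreted enzyme that removes the lipid from Wnt proteins and so inactivates them. It is also a known target gene of the pathway. It was scarce outside CiLC, at 0.210 and 0.364 CPM in MEF and 0 reads in both LC libraries. In CiLC it stood at 3.71 and 4.41 CPM, 13.8-fold higher than in MEF (log2 fold change 3.79 ± 0.468 SE). Against the floor of 3 reads over the LC libraries, the ratio was 46.4 for CiLC and 3.28 for MEF. Only the LC level is bounded in these ratios, and the MEF libraries held just 4 and 7 reads.

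Set per kilobase of the longest coding transcript in GENCODE M21, an approximation since the annotation behind the counts is not given, Sfrp1 was the most abundant of the 10 genes in MEF (131 CPM per kb) and CiLC (215), and Sfrp2 in LC (87.4). Lgr5 came next in MEF, at 121 CPM per kb, whereas Sfrp2 did so in CiLC, at 147. Summed over the 7 secreted antagonists, the level per kilobase was 208 and 209 in MEF, 416 and 407 in CiLC and 155 and 151 in LC. Sfrp1, Sfrp2 and Frzb together made up 69% and 70.7% of that sum in MEF, 89.9% and 90% in CiLC and 94.9% and 95% in LC.

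Lgr5, Axin2 and Nkd1, which are commonly read as reporters of β-catenin signalling, did not share an order. Lgr5 (14160), a receptor for R-spondins and a stem cell marker of several epithelia, was read at 588 and 557 CPM in MEF, 280 and 269 CPM in CiLC, and 0.622 and 0.602 CPM in LC. It was 2.09-fold lower in CiLC than in MEF (log2 fold change -1.06 ± 0.0458 SE) and 923-fold lower in LC than in MEF (-9.85 ± 0.306 SE). On the log2 scale CiLC stood 10.8% of the way from MEF to LC, and 443-fold above LC. That share rests on the low LC level, at 10.72 and 10.22 estimated reads. On the CPM scale the means were 572 in MEF, 274 in CiLC and 0.612 in LC.

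Axin2 (12006), a scaffold of the destruction complex that the pathway induces as negative feedback, moved the other way. It stood at 2.88 and 3.49 CPM in MEF, 9.52 and 9.63 CPM in CiLC, and 32.5 and 30.7 CPM in LC. The level was 3.00-fold higher in CiLC than in MEF (log2 fold change 1.59 ± 0.148 SE) and 9.89-fold higher in LC (3.31 ± 0.137 SE), with CiLC at 48.0% of the log2 distance. Nkd1 (93960), a feedback inhibitor that binds Dishevelled proteins, differed least of the 10 genes. It was read at 18.9 and 20.5 CPM in MEF, 24.6 and 26.0 CPM in CiLC, and 15.7 and 15.5 CPM in LC. No groups overlapped, and the folds were 1.28 between CiLC and MEF (log2 fold change 0.36 ± 0.0792 SE), 1.27 between MEF and LC (LC minus MEF -0.34 ± 0.0882 SE) and 1.62 between CiLC and LC (0.70 ± 0.0850 SE). Counts of Lgr5 in all libraries, of Nkd1 in 5 of 6 and of Dkk2 in some were not whole either.

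**Figure D2:**
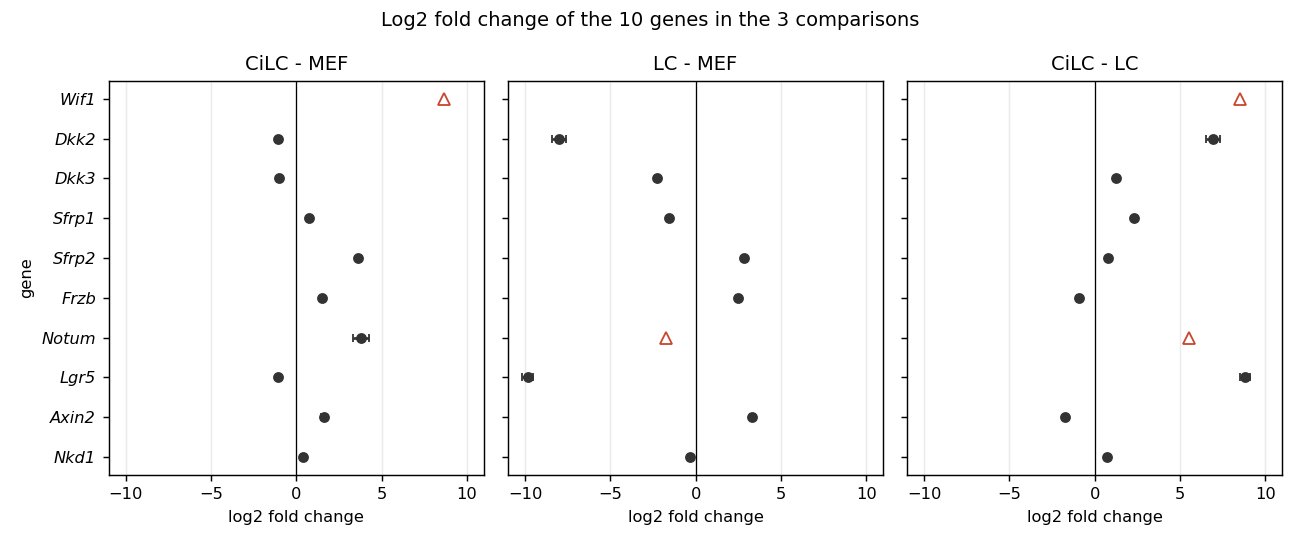
Log2 fold change of each of the 10 genes in the 3 comparisons. Filled points are fitted values with bars of ± SE. Open triangles are ratios of counts for Wif1, and ratios against the floor for Notum, where a group had 3 reads or fewer. No point is drawn for Wif1 between LC and MEF. Dkk2, Dkk3 and Lgr5 lie left of 0 in the first 2 panels, and Dkk2 and Lgr5 lie near -8.00 and -9.85 between LC and MEF.

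Counted over the 10 genes, CiLC stood above MEF in 7 and below in 3 with no overlap between libraries, where 38.0% of all genes tested were higher and 37.0% lower by that measure. By a fitted change of at least 2-fold, 5 were higher and 3 lower, against 6.95% and 6.62% of all genes. The 3 that were lower became 1 when libraries were scaled by their totals alone, since Dkk3 and Lgr5 lay close to that limit. Dkk2 lay close to it as well, with a log2 fold change of -0.99 without MEF replicate 1. Between LC and MEF, 3 were higher and 6 lower with no overlap (41.8% and 42.0% of all genes), and 3 were higher and 5 lower by at least 2-fold (14.6% and 13.2%). Between CiLC and LC, 8 were higher in CiLC and 2 lower with no overlap (42.8% and 41.8%), and 6 and 1 by at least 2-fold (11.8% and 14.2%). These comparisons share libraries pairwise, and the 10 genes were picked on these contrasts, so the counts are not evidence beyond the values above.

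For each of the 10 genes, the genes with the most similar profile were sought among all genes tested, by the Euclidean distance between mean-centred log2 CPM over the 6 libraries. Emx2, a transcription factor of the developing urogenital system, was nearest to Sfrp1 (distance 0.104), and the next was the ligand Wnt5a (0.139). Frzb was nearest to Stc2 (0.151) and then to the growth factor receptor Pdgfra (0.165). Xdh (0.253) was among the 2 genes nearest to Axin2. The genes nearest to Dkk3 were Rgs10 (0.127) and the complement gene C1qa (0.130), which macrophages express. Dkk2 was nearest to the cadherin Cdh8 (0.236), Sfrp2 to the inhibin subunit Inhbb (0.361), and Lgr5 to the matricellular gene Ccn3 (0.677). Notum was nearest to the sorting receptor Sorcs1 (0.715) and Wif1 to Mup20 (1.05), a major urinary protein gene, with Mup3 (2.33) after it, and reads of this family of near-identical copies may be split uncertainly. Nkd1 had the closest neighbours, Zfp995 (0.0777) and Kyat3 (0.0843), at a profile with small differences. Among the 10 genes themselves the closest pair was Frzb and Axin2, at 0.949. With 3 groups of 2 libraries many genes share a profile, and this is a description.

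Some summed lists of cell type markers shared an order with some of the 10 genes, mostly through a few of their members. Summed macrophage markers were highest in MEF and lowest in LC, as were Dkk2, Dkk3 and Lgr5. Csf1r, Cd68 and the 3 C1q genes had that order in their means, but Ptprc was highest in CiLC, and Adgre1 was highest in CiLC (367 ± 10.7 CPM) and lowest in MEF (166 ± 8.78). Summed Leydig markers had the order of Frzb and Axin2, as did Star, Cyp11a1, Hsd3b1 and Nr5a1. Most of the sum in LC was Cyp11a1, at 705 ± 17.8 CPM. Insl3 was lowest in CiLC by its mean (0.558 ± 0.543 CPM, against 0.963 ± 1.36 in MEF). Cyp17a1 and Lhcgr were near 0 in all groups. The sum of 5 Sertoli cell markers had the order of Frzb and Axin2 as well. It was 141 CPM in both LC libraries, 17.8 to 20.9 in CiLC and 5.83 to 6.81 in MEF. Fshr was at 0 in MEF and CiLC. Most of the Sertoli sum was Wt1, at 123 ± 1.15 CPM in LC. Summed adipocyte markers (5 genes) had the order of Sfrp2, at 1779 to 1786 CPM in CiLC, 449 to 458 in LC and 187 to 205 in MEF. Nearly all of that sum was Lpl, at 1771 ± 5.95 CPM in CiLC. Adipoq was at 0 in MEF and LC and Plin1 in MEF. Plin1 and Fabp4 were highest in LC, and Pparg was lowest in LC. The sum of 5 epithelial markers had the order of Sfrp1, Notum and Nkd1, at 25.9 to 28.1 CPM in CiLC, 20.8 to 22.0 in MEF and 5.97 to 6.74 in LC, but its members did not share one. Krt8 and Krt18 were highest in CiLC, whereas Cdh1 was highest in MEF (20.4 ± 0.967 CPM) and lowest in CiLC (1.96 ± 0.318), and Epcam, at 0 in MEF like Krt14, was highest in LC. Their part in the values of the 10 genes was not tested.

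The rest of the pathway was tested with edgeR's quasi-likelihood test on a list of 92 other genes by role, of which 76 passed the filter on low counts. Between CiLC and MEF, 26 rose, 26 fell and 24 were not called at an adjusted p of 0.05, with a median log2 fold change of -0.03. Of all genes tested, 51.6% were called (26.1% higher and 25.5% lower), with a median of 0.01. Between LC and MEF the list held 25 higher and 39 lower genes (median -0.28), where 70.7% of all genes were called, 35.7% higher and 35.0% lower (median -0.01). Between CiLC and LC, 40 stood higher in CiLC and 24 lower (median 0.23), where 70.6% of all genes were called, 35.0% higher and 35.6% lower (median 0.00). Whether libraries of one group are from separate cultures is not in the labels. The p-values therefore cover library-to-library spread alone, which may be technical. The fitted biological coefficient of variation was 3.16%, and larger ones were assumed after seeing the data. When it was set to 0.1, 18 of the list rose and 15 fell between CiLC and MEF. When it was set to 0.4, 4 rose (Fzd4, Rspo1, Draxin and Tnfrsf19) and 2 fell (Rspo2 and Ccn4), and every other call named between CiLC and MEF was lost, Wnt5a (edgeR adjusted p = 1), Wnt4 (0.386), Lgr4 (0.116) and Ccnd1 (0.855) among them.

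**Figure D3:**
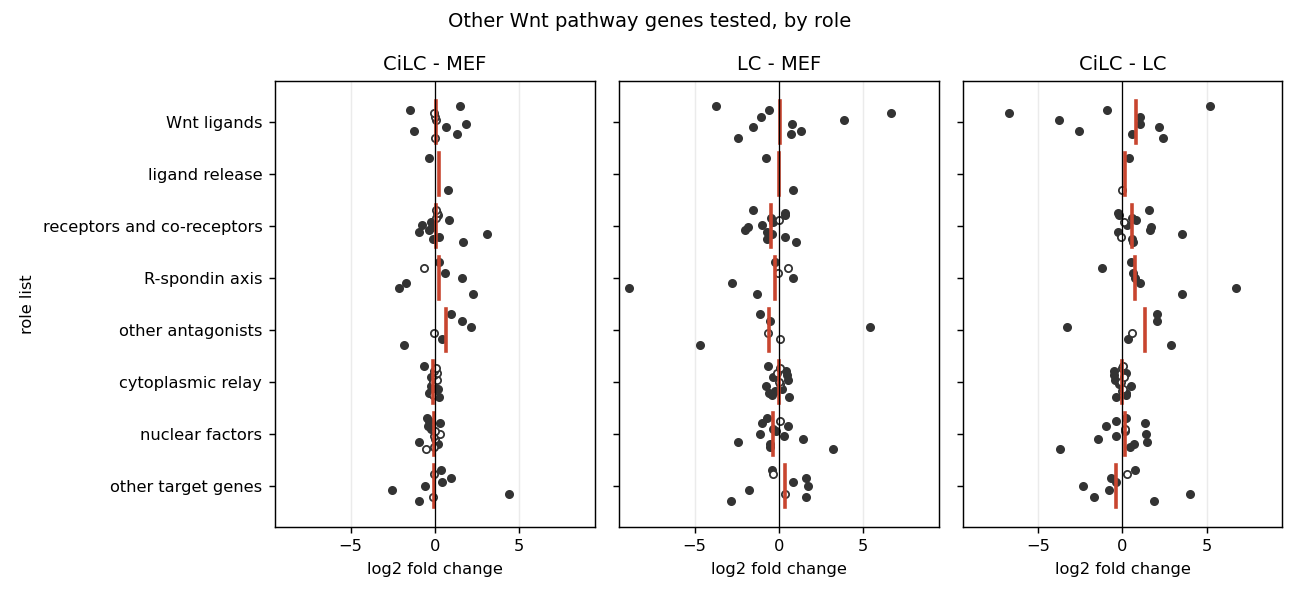
Log2 fold change of the 76 other Wnt pathway genes tested, by role, in the 3 comparisons. Each point is a gene, filled where called by edgeR at an adjusted p of 0.05 and open where not, and red bars are medians of a role list. Genes of the cytoplasmic relay lie close to 0, and ligands and R-spondins spread to both sides.

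Between CiLC and MEF, 4 of 10 tested Wnt ligands rose and 2 fell. Wnt5a, a ligand of mostly β-catenin-independent signalling, rose from 76.4 ± 1.64 to 119 ± 3.92 CPM (SD, n = 2), and was 26.2 ± 1.70 CPM in LC. The fitted change from MEF to CiLC was 1.55-fold, with an adjusted p of 3.62e-10 by edgeR. Wnt2b (edgeR adjusted p = 3.94e-08), Wnt5b (1.98e-07) and Wnt16 (9.43e-06) rose as well, by 2.50-fold, 3.60-fold and 2.80-fold. Wnt4, known for its part in ovary and kidney development, fell 2.39-fold, from 20.4 ± 0.714 to 8.52 ± 0.383 CPM, while LC had 50.7 ± 2.34 CPM. Wnt11 fell 2.78-fold (edgeR adjusted p = 3.45e-06). Wnt2 was at 1.90 ± 0.468 CPM in MEF and 1.89 ± 0.144 in CiLC and was not called.

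Other ligands were high in LC. Wnt6 was 116 ± 1.73 CPM in LC, 14.4-fold above MEF (edgeR adjusted p = 2.04e-22), and did not pass the test between CiLC and MEF (8.58 ± 1.06 and 8.04 ± 0.188 CPM). Wnt10a had 207 reads in LC and 2 each in MEF and CiLC, a ratio of 116 to MEF with a counting interval from 31.6 to 962. Against MEF, 5 of 10 ligands were higher in LC and 5 lower, and Wnt16 was the most reduced, at 0.0597 and 0.237 CPM in LC. Porcn, which attaches the lipid to Wnt proteins, rose in CiLC (log2 fold change 0.80, edgeR adjusted p = 7.33e-06) and was higher in LC (0.84) than in MEF. Wls, which carries Wnt proteins to the surface, fell from 418 ± 16.7 CPM in MEF to 324 ± 3.20 in CiLC (edgeR adjusted p = 4.03e-07), and LC had 248 ± 4.17 CPM.

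Of 14 tested receptors and co-receptors, 5 rose and 6 fell between CiLC and MEF. Fzd4, a Frizzled known from blood vessel growth, stood at 102 and 98.6 CPM in the CiLC libraries, 12.2 and 11.3 in MEF and 9.51 and 8.06 in LC, and rose 8.54-fold from MEF to CiLC (edgeR adjusted p = 2.23e-20). Fzd1 rose 3.17-fold and Lrp6 1.76-fold. Fzd5 fell 1.90-fold (edgeR adjusted p = 5.09e-11). In LC, 9 of 14 were lower than in MEF and 4 higher, with Fzd6 the most reduced (3.96-fold) and Fzd1 the most increased (2.04-fold). Fzd5 was lower in CiLC than in LC by 1.19-fold (edgeR adjusted p = 0.00454), but was not called with DESeq2 (0.0722), at the assumed coefficient of 0.1 (0.184) and without CiLC replicate 1 (0.0526).

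R-spondins changed in opposite directions. Rspo1, the R-spondin of ovary development, stood at 15.8 and 15.2 CPM in the CiLC libraries, 2.94 and 3.59 in MEF and 1.57 and 1.12 in LC, and rose 4.73-fold from MEF to CiLC (edgeR adjusted p = 1.91e-12). Rspo2 fell 4.31-fold, from 16.9 ± 1.49 to 3.91 ± 0.584 CPM (edgeR adjusted p = 4.71e-12), and had 1 read in LC, a ratio of MEF to LC of 578 with a counting interval from 103 to 22849. Rspo3 fell 3.29-fold, from 58.9 ± 0.591 to 17.9 ± 0.0800 CPM, and LC had 8.62 ± 0.299 CPM. Rspo2 and Rspo3 thus had the same order of groups as Lgr5, a receptor that binds them. Lgr4, the relative of Lgr5, rose 3.02-fold in CiLC, going from 28.8 ± 3.43 to 87.1 ± 1.62 CPM (edgeR adjusted p = 1.35e-15), and LC had 51.6 ± 1.56 CPM. The family receptors Lgr4 and Lgr5 were therefore on opposite sides of MEF in both CiLC and LC. Between CiLC and MEF the R-spondin list had 4 of 7 members higher and 2 lower (median log2 fold change 0.26).

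**Figure D4:**
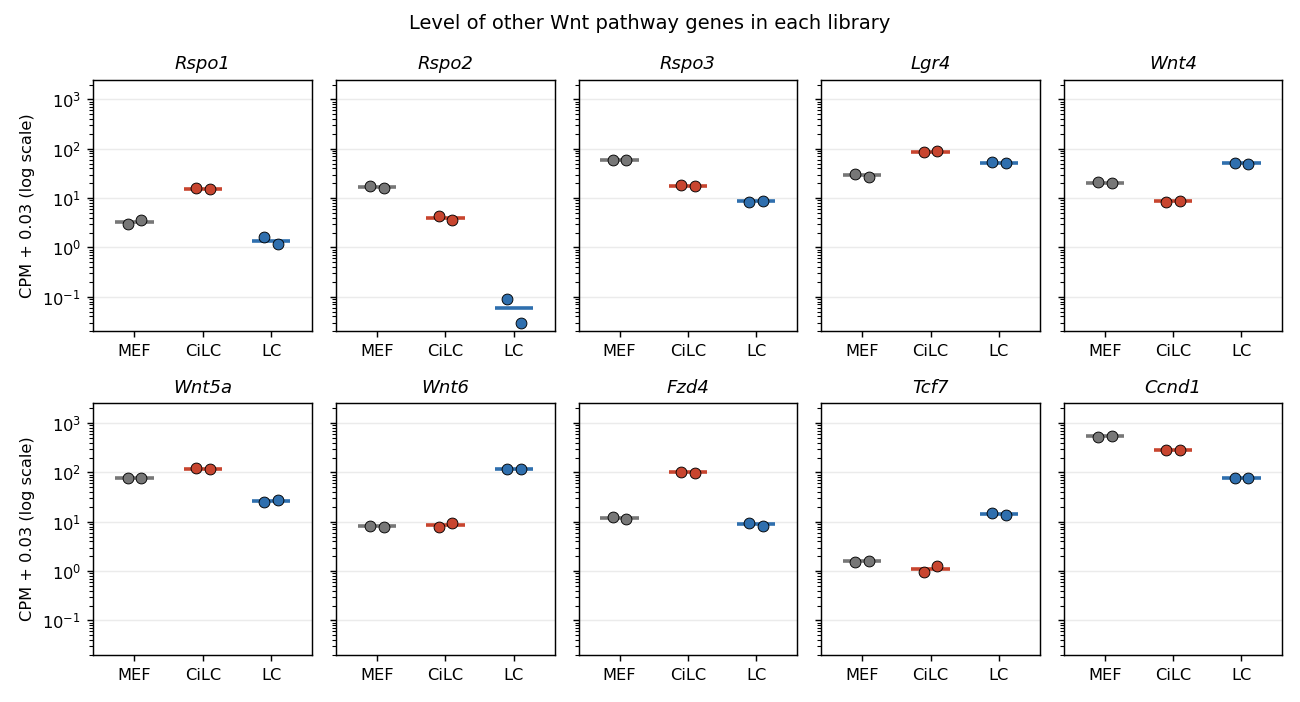
Level of 10 other Wnt pathway genes in every library, as CPM with 0.03 added, on a log scale. Points are single libraries and lines are group means (n = 2). Rspo1 and Fzd4 are highest in CiLC, Rspo2, Rspo3 and Ccnd1 in MEF, and Wnt4, Wnt6 and Tcf7 in LC.

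Of the antagonists outside the 10 genes, 6 could be tested, of which 4 rose and 1 fell between CiLC and MEF. Sfrp4, another secreted Frizzled-related protein, went from 169 ± 1.74 CPM in MEF to 48.3 ± 0.227 in CiLC and 6.58 ± 1.02 in LC, a fall of 3.50-fold between MEF and CiLC (edgeR adjusted p = 2.76e-18). Among the family, Sfrp4 thus had the order of Dkk2 and Dkk3, and not that of Sfrp1, Sfrp2 or Frzb. Draxin, an axon guidance protein that binds Lrp6, rose from 0.876 ± 0.104 to 3.86 ± 0.967 CPM in CiLC (edgeR adjusted p = 2.21e-07) and was 37.9 ± 2.82 CPM in LC. Apcdd1, a membrane inhibitor of Wnt signals, rose 2.98-fold in CiLC and Tpbg, which acts on Lrp6, 1.93-fold. Both were picked as examples with their values in view. Dkk1 was too low to test, with mean CPM of 0.106 ± 0.111 for LC, 0.275 ± 0.286 for CiLC and 0.516 ± 0.0469 for MEF.

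Inside the cell the differences were smaller. Of 15 members of the relay and the destruction complex, 2 rose and 6 fell between CiLC and MEF (median log2 fold change -0.10). β-Catenin itself, Ctnnb1, was 441 ± 6.57 CPM in MEF and fell to 375 ± 13.8 in CiLC, by 1.18-fold (edgeR adjusted p = 0.000237, or 0.243 at the assumed coefficient of 0.1). Nkd2, the relative of Nkd1, fell 1.54-fold, from 11.3 ± 0.463 to 7.29 ± 0.126 CPM (edgeR adjusted p = 6.15e-05), and Dvl1 rose from 54.8 ± 2.34 to 64.6 ± 1.96 CPM (0.000995, or 0.253 at 0.1). Between LC and MEF 5 members were higher and 6 lower, and Apc2 was the most reduced (log2 fold change -0.78).

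Of 13 nuclear factors, 2 rose and 5 fell between CiLC and MEF. Tcf7, a TCF/LEF factor, was 1.54 ± 0.0292 CPM in MEF and 1.07 ± 0.213 in CiLC, a difference that did not pass the test (edgeR adjusted p = 0.113). LC had 14.2 ± 0.840 CPM, 9.18-fold above MEF (edgeR adjusted p = 2.82e-14). Lef1 was low throughout, with mean CPM of 0.223 ± 0.0121 for LC, 0.661 ± 0.145 for CiLC and 1.25 ± 0.00629 for MEF. Its fall in CiLC (edgeR adjusted p = 0.0456) was lost with the replicate block (0.0572), with DESeq2 (0.359), without a filter (0.0549) and without any single library (0.0617 to 0.249). Tcf7l2 rose from 46.4 ± 0.284 to 52.1 ± 1.49 CPM (edgeR adjusted p = 0.0169), and was not called with DESeq2 (0.196), at the assumed coefficient of 0.1 (0.465), without MEF replicate 1 (0.0666) and without CiLC replicate 2 (0.138).

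Other target genes also differed in direction. Between CiLC and MEF 4 of 9 rose and 3 fell. Tnfrsf19, a receptor known as a β-catenin target, went from 0.575 ± 0.0768 to 12.2 ± 1.05 CPM, a rise of 21.1-fold (edgeR adjusted p = 3.03e-14), and was 0.758 ± 0.240 CPM in LC. CiLC thus stood above both other groups, as for Wif1, Sfrp1, Sfrp2, Notum and Nkd1. Ccn4, a matricellular target gene, fell 5.96-fold, from 540 ± 23.1 to 90.6 ± 4.93 CPM (edgeR adjusted p = 3.36e-21). Ccnd1, which encodes cyclin D1, fell 1.89-fold, from 537 ± 15.6 to 284 ± 5.35 CPM (edgeR adjusted p = 3.47e-14), and LC had 75.9 ± 0.930 CPM. Myc was not called between CiLC and MEF (46.8 ± 0.690 and 50.3 ± 2.11 CPM; edgeR adjusted p = 0.143) and was 155 ± 3.02 CPM in LC. In LC, 4 of 9 were higher than in MEF and 3 lower, with Ccn5 3.32-fold higher. Axin2, Myc and Ccn5 were thus highest in LC, Lgr5, Ccnd1 and Ccn4 in MEF, and Notum, Nkd1 and Tnfrsf19 in CiLC. Of the other target genes tested, Cd44 and Tbx3 were also highest in LC and Twist1 in CiLC, and Bambi was called in no comparison.

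Set by the order of groups, 18 of the 76 genes (23.7%) had that of Dkk2, Dkk3 and Lgr5, with MEF highest and LC lowest and no overlap, against 14.0% of all genes tested. The order of Sfrp1, Notum and Nkd1 was that of 12 genes (15.8%, against 11.1%), among them Wnt5a, Rspo1 and Fzd4. The order of Frzb and Axin2 was that of 6 (7.89%, against 13.8%), among them Draxin, Cd44 and Tbx3, and the order of Sfrp2 that of 4 (5.26%, against 4.07%), Fzd1, Lgr4, Wnt2b and Wnt5b. These shares are descriptions, with no test.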

How the data were processed

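RNA of 6 libraries was sequenced, and the libraries were grouped by sample title. The deposited values are expected counts, estimated reads per gene that the authors made by aligning reads with HISAT to mm9, per the submitters' processing notes. The counting tool, its annotation and its use of strand were not given in the sources used here, so reads of overlapping genes cannot be told apart. About 32.4% to 32.8% of values in a library were not whole. Symbols came from RefSeq (GRCm38.p6) by gene number, for 18179 of 18305 genes.

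Counts were rounded and fitted with edgeR 4.0.16 in R 4.3.3 (limma 3.58.1 and DESeq2 1.42.0 for alternatives). filterByExpr (minimum count 10, total 15) kept 14581 genes. Libraries were scaled by TMM, and a quasi-likelihood fit of all 6 libraries had group as its only term, with Benjamini-Hochberg adjustment over all genes tested. The fit was tested on simulated data. CPM use the scaled library sizes. Libraries of a group differed by more than sampling noise (chi-square per degree of freedom 1.80 to 2.94), so both were kept. Depth of 18.4 to 18.9 M reads sets the floor, and intervals and floors cover counting error only.

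The 10 genes and all lists were chosen with earlier results of these data known. Named pathway genes are a fixed set and, per comparison and role list, the called gene with the largest change in each direction at 1 CPM or more. Wnt6, Lrp6, Apcdd1, Tpbg, Rnf43, Znrf3, Cd44, Tbx3, Twist1, Bambi and the genes too low to test fall outside that rule and were named with their values in view. Wnt3a, Dkk4 and Sost of the lists are not analysed here. One gene near Axin2 in profile is not reported here.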

Additional observations from a re-analysis of the deposited data

How the results depend on the processing

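Counts of called pathway genes stayed within 1.5 times the reported ones with DESeq2, DESeq2 size factors, quantile normalization, no filter, a filter at 5 CPM, only the 4 libraries compared, and each library left out. Leaving out libraries gave 23 to 26 higher and 20 to 29 lower between CiLC and MEF, 24 to 25 and 36 to 40 between LC and MEF, and 36 to 42 and 22 to 25 between CiLC and LC. With the replicate number as a block the counts were 26 and 25, 25 and 38, and 42 and 24. Nothing in the labels pairs the numbers, and the replicate differences of the groups correlated across genes at 0.10, -0.01 and -0.09.

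The assumed spread, added after seeing the data, mattered most. At a coefficient of variation of 0.1, 18 genes were higher and 15 lower between CiLC and MEF. The counts were 23 and 35 between LC and MEF, and 34 and 20 between CiLC and LC. At 0.4 the counts were 4 and 2 between CiLC and MEF, 7 and 10 between LC and MEF, and 14 and 7 between CiLC and LC. Scaling by library totals moved the median log2 fold change of all genes from -0.01 to -0.16 between LC and MEF. Between CiLC and LC the median moved from 0.00 to 0.22. That scaling left 1 of the 10 genes at least 2-fold lower in CiLC than in MEF. The fitted log2 fold changes of the 10 genes kept their sign in every setting tried where a fold is given. The log2 fold change of Wif1 between CiLC and MEF ran from 7.07 to 11.63, and that of Notum between CiLC and LC from 5.28 to 9.35.

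Uncalled genes with a log2 fold change near 0 changed sign. Wnt2 between CiLC and MEF was 0.02 with quantile normalization, 0.00 with the block and -0.23 to 0.26 with a library left out. Wnt10a in that comparison ran from -0.95 to 3.09, and Porcn between CiLC and LC from -0.17 to 0.09, with 0.05 without LC replicate 1. Nkd2 between CiLC and LC was -0.04 with quantile normalization. Over the whole list and all comparisons, 26 calls were lost with DESeq2 and 7 with quantile normalization, with the sign kept. Only losses of genes named by the rule are given. Apart from the assumed spreads and the losses given with their gene in the results, these were as follows. Between LC and MEF, Wnt11 lost its call with DESeq2 (adjusted p = 0.163) and, by edgeR, without MEF replicate 1 (0.0619) or LC replicate 2 (0.145). Wnt5b lost its call there with DESeq2 (0.0638) and without MEF replicate 2 or LC replicate 1 (0.0695 for the latter), and Fzd4 without LC replicate 2 (0.0526). Between CiLC and MEF, Fzd6 lost its call with DESeq2 (0.194), with no filter (0.0585) and without MEF replicate 2 (0.137) or CiLC replicate 2 (0.108). Apc2 lost its call there with DESeq2 (0.206), with no filter (0.0632) and without MEF replicate 2 (0.359) or either CiLC library (0.0605 and 0.098). Between CiLC and LC, Lef1 lost its call with DESeq2 (0.136) and without CiLC replicate 1 (0.133) or either LC library (0.0793 and 0.0825).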

Other observations

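Of the pathway genes in the tables, 16 did not pass the filter on low counts. Among them were the ligands Wnt1, Wnt3, Wnt7a, Wnt7b, Wnt8a, Wnt8b and Wnt9b, each at a mean of at most 0.0589 CPM in every group, and Wnt10b, at 0.264 ± 0.127 CPM in LC. The Wnt antagonist Sfrp5 had at most 2 reads in a library. Sostdc1, an antagonist of Wnt and BMP signals, had 5 and 8 reads in MEF, 1 and 0 in CiLC and 0 in both LC libraries. Sp5, a transcription factor gene that β-catenin signalling induces in many cells, had at most 3.09 estimated reads in a library, and Rspo4 at most 5. Rnf43, a target gene that removes Frizzled receptors, was tested, with mean CPM of 0.965 ± 0.217 for LC, 0.407 ± 0.145 for CiLC and 0.652 ± 0.255 for MEF, and was called only between CiLC and LC (log2 fold change -1.23, edgeR adjusted p = 0.0248). Its relative Znrf3 was higher in CiLC than in MEF, at 17.6 ± 1.24 against 14.8 ± 0.452 CPM (edgeR adjusted p = 0.0259).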
